A study of Mus musculus with 3 samples.

Results

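The immunoglobulin constant genes and Jchain were followed through 3 whole neuroblastomas of TH-MYCN mice. The 10 genes, of 31053 in the raw count tables, were taken by name: the heavy chain constant genes Ighm, Ighd, Igha, Ighg1, Ighg2b, Ighg2c and Ighg3, the light chain constant genes Igkc and Iglc2, and Jchain. They were read in the cells that the authors kept (1914, 1221 and 2515 in tumors 1, 2 and 3), as B cells, as cells with at least 5 Jchain UMIs (unique molecular identifiers, each standing for 1 captured RNA molecule) and as RNA found in other classes.

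TH-MYCN mice carry human MYCN under the tyrosine hydroxylase promoter, which is active in the sympathetic lineage, and all were heterozygous for the transgene. Each tumor came from 1 mouse, at 62, 79 and 63 days of age, and the 3 form 1 group with no untreated or tumor-free tissue beside them. Tumors were dissociated enzymatically and captured whole, with no sort for immune cells, by 10x Genomics Chromium 3′ chemistry. Comparisons were therefore made between cell classes of the same tumors, and 1 tumor was 1 sample.

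A B cell makes antibody from a heavy chain and a light chain. The heavy chain begins as IgM and IgD, from Ighm and Ighd, spliced from 1 long transcript, and can be switched to IgG or IgA by deletion of the DNA between constant genes. The light chain is kappa, from Igkc, or lambda, from the Iglc genes, and a B cell normally expresses just one of these kinds. Naive and resting B cells hold antibody on the surface as the B cell receptor, whereas plasma cells secrete it in bulk, and Jchain encodes the small protein that joins IgA and IgM into polymers. Each clone of B cells uses its own pair of variable (V) segments, upstream of the constant region, so V segments can be read beside the constant genes.

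The heavy constant genes lie together on chromosome 12 on the minus strand (GRCm38), from Igha (chr12:113254830-113260236) to Ighm (chr12:113418558-113422730). Igkc lies at chr6:70726435-70726966 on the plus strand, Iglc2 at chr16:19198396-19200351 on the minus strand and Jchain at chr5:88519809-88527891 on the minus strand. Iglc2 has a near copy, Iglc3, at chr16:19065230-19065681, which was measured beside the members because both were found in these cells. The coding sequences of both differed at 11 of 317 aligned bases (96.53% identity), and at 1 of the last 100, the end that 3′ chemistry reads most. UMIs may thus have been split between Iglc2 and Iglc3 by few bases, and their ratio is uncertain in level. Capitals mark the 11 bases that differ in the last 298 bases of the coding sequence, written 5′ to 3′ on the coding strand (GENCODE M21, Iglc2 at chr16:19198536-19198833, Iglc3 at chr16:19065365-19065662, both on the minus strand of GRCm38).
Iglc2: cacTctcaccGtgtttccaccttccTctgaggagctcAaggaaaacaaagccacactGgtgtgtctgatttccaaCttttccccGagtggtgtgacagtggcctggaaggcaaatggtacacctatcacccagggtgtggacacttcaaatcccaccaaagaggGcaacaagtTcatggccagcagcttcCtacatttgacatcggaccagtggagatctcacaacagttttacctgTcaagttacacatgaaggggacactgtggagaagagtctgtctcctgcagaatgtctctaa
Iglc3: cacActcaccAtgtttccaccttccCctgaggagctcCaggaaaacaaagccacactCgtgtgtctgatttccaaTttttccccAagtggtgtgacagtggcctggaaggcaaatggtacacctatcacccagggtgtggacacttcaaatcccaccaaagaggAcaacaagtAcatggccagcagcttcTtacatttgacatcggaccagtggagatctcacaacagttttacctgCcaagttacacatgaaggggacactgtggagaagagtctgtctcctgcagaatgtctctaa

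Tumor 1 stood apart from the other tumors before any comparison. Its kept cells held a median of 4282.5 UMIs against 1594 and 1816, and the members made up 95.3 of every 10000 UMIs against 11.1 and 0.690. In 35.8% of its kept cells the authors' corrected counts exceeded the raw counts, which happened in no kept cell of tumors 2 and 3. Kept cells of tumors 1 and 2 shared 3 barcodes, those of tumors 2 and 3 shared 1, and those of tumors 1 and 3 shared 0. Cell classes were rebuilt by clustering with all immunoglobulin genes and Jchain held out, and were named "-like" from markers. The B cell-like cluster carried 8 of 8 markers and was led by Ms4a1, Fcmr and Cd79a, and the plasma cell-like cluster carried 9 of 9 and was led by Tnfrsf17, Mzb1 and Derl3.

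Nearly all antibody RNA of tumor 1 sat in a handful of cells. Cells with at least 5 Jchain UMIs numbered 24 of 1914 in tumor 1 (1.25%, 95% exact binomial interval 0.805 to 1.86), 1 of 1221 in tumor 2 (0.0819%, 0.00207 to 0.455) and 0 of 2515 in tumor 3 (upper bound 0.147%, and up to 0.119% by the limit of 3 cells). In tumor 1 those cells held 2.43% of the UMIs but 88.6% of the UMIs of the members, and in tumor 2 the single cell held 0.299% of the UMIs and 92.0% of the members' UMIs. The cells were chosen by Jchain, so these values are a description. The lowest cell inside the threshold had 7 Jchain UMIs in tumor 1 and the highest cell outside had 3, while in tumor 2 they had 169 and 1, and in tumor 3 no cell had more than 1.

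In tumor 1 the members divided by where their UMIs were, between the cells chosen by Jchain and the B cell-like class. In tumor 1 the cells with at least 5 Jchain UMIs held 98.4% of all Igha UMIs, 97.4% of Ighg1, 98.9% of Ighg2c and 90.2% of Igkc. By contrast they held 1.58% of Ighm and 0.186% of Ighd, of which the B cell-like class held 57.0% and 92.8%. Iglc2 was also mostly in the B cell-like class (66.6%), with 26.7% in the cells with at least 5 Jchain UMIs. In tumors 2 and 3 the B cell-like class held 100% of Ighd but 23.1% and 14.3% of Ighm. Macrophage-like cells there held 43 of 78 and 83 of 140 Ighm UMIs. Ighg3 was scarcely seen, with 6 UMIs in tumor 1 and 0 in tumors 2 and 3. In tumor 3 all switched genes but one were near 0, with 15 Igha, 1 Ighg1, 2 Ighg2c and 0 Ighg3 UMIs over 2515 cells, whereas 39 Ighg2b UMIs were found, described with the macrophage-like class.

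Of the 24 cells of tumor 1, 21 fell in the plasma cell-like cluster, 2 in the B cell-like cluster and 1 in an unnamed cluster. The members made up 1.04% to 67.1% of the UMIs of a cell, with a median of 32.7%. Igha, the IgA constant gene, led the heavy chains in 12 cells, with 43 to 4754 UMIs a cell, and in each of these it held at least 93.5% of the cell's heavy constant UMIs. Ighg1 led in 9 cells, of which 4 held 1734 to 4129 Ighg1 UMIs and 5 held 2 to 19. Ighg2c led in 2 cells, with 98 UMIs in cell 3 and 2906 in cell 16. Cell 3 is the cell of the unnamed cluster. Among its 19438 UMIs it held 79 of Lyz2, one of the macrophage markers, and 1 of Mzb1. Whether its barcode was mixed was not tested. A further cell had 244 Igkc and 41 Jchain UMIs but no heavy constant UMI. Ighm reached at most 12 UMIs in any of the 24 cells.

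All 24 cells were kappa cells by their constant genes. Igkc ranged from 122 to 10101 UMIs a cell (median 1763.5), and lambda constant UMIs made up 0% to 32.4% of the light chain UMIs, with a median of 0.891%. Jchain ranged from 7 to 1879 UMIs (median 77). Set against Igkc, Jchain was 8.52 to 22.9 per 100 Igkc UMIs in the cells led by Igha and 0.918 to 15.1 in those led by Ighg1, so the ranges overlapped. Cells 12 and 15 combined 1734 and 2509 Ighg1 UMIs with 44 and 45 Jchain UMIs. The single cell of tumor 2 had 870 Igha, 1746 Igkc and 169 Jchain UMIs among 8196, or 34.0% in members.

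**Figure D1:**
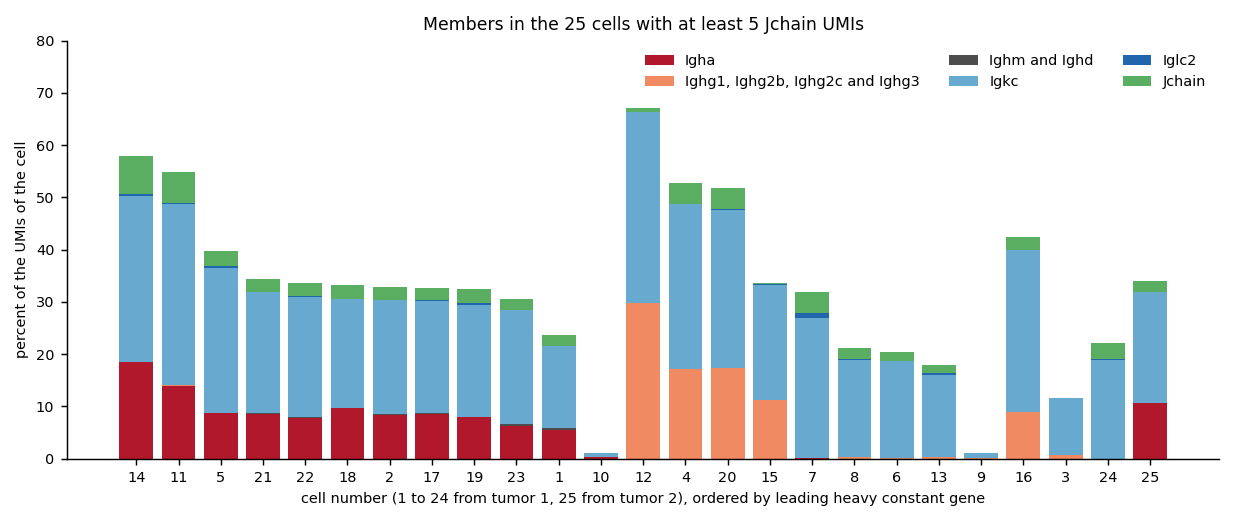
Percent of the UMIs of each cell (vertical axis) that came from the members, for the 25 cells with at least 5 Jchain UMIs, as stacked bars by gene group and ordered by leading heavy constant gene. Igkc is the widest band in most bars, cells 9 and 10 carry little of any member, and cells 6, 7, 8, 13 and 24 carry kappa and Jchain with almost no heavy constant gene.

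V segments, which took no part in choosing the cells, were read beside the constant genes. In the cells with at least 5 Jchain UMIs of tumor 1 the V segment with most UMIs was Iglv1 among light chains (609 UMIs) and Ighv7-1 among heavy chains (45 UMIs, all in cell 15 and equal in number to those of Ighv1-77). In tumor 2 they were Igkv4-50 with 7 UMIs and Ighv1-4 with 1. Grouping the cells by the kappa V segment with most UMIs gave 3 sets of at least 2 cells, which were named after their values had been seen. The lead rested on 1 UMI in cells 1, 6 and 13, and V segment joints were not read, so cells of a set share a segment and need not share a light chain. The coding sequences of the segments that define the larger of these sets are shown to place them, each as its last 298 coding bases (GENCODE M21, plus strand of GRCm38, Igkv1-117 at chr6:68121530-68121827 and Igkv6-17 at chr6:70371696-70371993), and they are reference sequences, not rearranged ones read from the cells.
Igkv1-117: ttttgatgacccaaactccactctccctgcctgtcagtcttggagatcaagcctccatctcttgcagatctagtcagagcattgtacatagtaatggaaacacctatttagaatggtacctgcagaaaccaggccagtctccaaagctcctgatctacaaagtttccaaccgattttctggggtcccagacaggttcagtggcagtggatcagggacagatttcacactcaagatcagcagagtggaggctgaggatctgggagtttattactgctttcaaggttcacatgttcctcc
Igkv6-17: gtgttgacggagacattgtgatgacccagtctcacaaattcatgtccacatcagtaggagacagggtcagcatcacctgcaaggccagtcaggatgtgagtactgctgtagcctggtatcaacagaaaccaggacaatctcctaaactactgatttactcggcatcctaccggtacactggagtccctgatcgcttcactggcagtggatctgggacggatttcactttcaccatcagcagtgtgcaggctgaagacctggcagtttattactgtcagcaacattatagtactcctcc

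Igkv1-117 led in 7 cells of tumor 1, all of them IgA cells. They held 783 to 16608 UMIs each, with Igkc at 15.6% to 23.3% of UMIs and Jchain at 17 to 452 UMIs. In 4 of them Ighv3-2 was found as well, a heavy V segment that the annotation lists as a pseudogene, with 18 of its 19 UMIs in the tumor. Apart from these 7 cells, Igkv1-117 was found in 1 other cell with at least 5 Jchain UMIs, 2 B cell-like cells and 2 cells of other classes, and 0 UMIs were found in tumors 2 and 3. Ighm was at 3 to 12 UMIs in 6 cells of the set and 0 in cell 18, and cells 16 and 20 outside it had 5 and 4.

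Igkv6-17 led in 5 cells with 968 to 9897 UMIs, and 4 of them also held Ighv1-77. These are the cells with almost no heavy constant gene: 0 to 15 heavy constant UMIs stood beside 153 to 2653 Igkc and 15 to 401 Jchain UMIs. All 45 Ighv1-77 UMIs of tumor 1 were in these 4 cells. Which constant gene their heavy chain used was not seen in the counts. The strain of the mice is not given in the sources used here, and the annotation holds Ighg2c but not Ighg2a, its counterpart in some strains, so UMIs of an Ighg2a allele may be missing or be counted under Ighg2b or Ighg2c here and throughout. Igkv6-32 led in 2 cells, cells 4 and 20, with 2571 and 4129 Ighg1 UMIs, and both also held Ighv1-15. The leading heavy V segments differed, with Ighv1-15 in cell 4 (14 UMIs) and Ighv1-23 in cell 20 (15 UMIs). Over genes outside the immunoglobulin loci, the correlation between pairs of cells was 0.457 to 0.670 within the Igkv1-117 set, 0.465 to 0.566 within the Igkv6-17 set and 0.721 for the Igkv6-32 pair, against 0.334 to 0.797 (median 0.570) over all pairs of the 25 cells. These are correlations across genes, cells differ in depth, and the sets did not lie outside the range of other pairs.

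Iglv1 was found in kappa cells. Of its 625 UMIs in tumor 1, 609 were spread over 12 cells with at least 5 Jchain UMIs, each of which held at least 285 Igkc UMIs. All 3 lambda constant genes together had 581 UMIs in these cells, against 62187 of Igkc. In 5 of the cells Iglv1 exceeded the lambda constant UMIs, with the most, 313 Iglv1 UMIs, in cell 14.

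B cell-like cells carried the receptor genes and few UMIs of the switched ones. Their numbers without cells of at least 5 Jchain UMIs were 201, 14 and 25 in tumors 1, 2 and 3. Ighm stood at 21.9, 7.58 and 5.20 per 10000 UMIs, Ighd at 10.8, 5.47 and 3.64, Igkc at 63.97, 40.4 and 7.27 and Iglc2 at 10.2, 1.26 and 0.260. All 4 genes thus held the same order of tumors, with tumor 1 highest. Counts by 3′ chemistry do not grow with transcript length, so these are levels of captured molecules.

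The switched genes together were low in the same cells. Igha was at 0.617 per 10000 UMIs in tumor 1, 0 in tumor 2 and 0.260 in tumor 3, and Ighg1 at 0.336, 0 and 0. In tumor 1, 46 of 201 cells had any UMI of a switched gene and in 1 cell these outnumbered Ighm and Ighd, with 37 UMIs the most in a cell. Ighm and Ighd were found together in 192 of 201 cells in tumor 1, 6 of 14 in tumor 2 and 5 of 25 in tumor 3. The medians in tumor 1 were 9 Ighm, 4 Ighd, 26 Igkc and 3 Iglc2 UMIs a cell.

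The share of B cell-like cells with an Ighm UMI was 99.0%, 64.3% and 52.0% in tumors 1, 2 and 3, at median depths of 4359, 1563.5 and 1491 UMIs. T cell-like cells, which should lack the gene, had 37.7%, 0% (up to 0.366 per 10000 UMIs allowed by a count of 0) and 5.97%, at 4975.5, 1533.5 and 1459 UMIs. After each cell was thinned to 500 UMIs the B cell-like shares were 64.2%, 42.9% and 20%, and the T cell-like shares 13.7%, 0% and 1.49%. For Igkc, without thinning, the B cell-like shares were 99.5%, 100% and 44.0%, and the T cell-like shares 43.2%, 0% and 1.49%. The thinned Ighm share of tumor 2 rests on 6 of 14 cells, and 13 of 25 B cell-like cells of tumor 3 had no light chain UMI.

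Kappa exceeded lambda in most B cell-like cells. In tumor 1, 188 of 201 cells had more Igkc than lambda constant UMIs, 12 had more lambda and 1 was tied, while in tumor 2 the numbers were 13, 1 and 0 and in tumor 3 they were 11, 1 and 0. Yet 131 of the 201 cells of tumor 1 had at least 5 UMIs of both, and the cells of tumors 2 and 3 had none. The lambda constant genes together were at 18.5, 6.74 and 0.520 per 10000 UMIs. The part of free RNA in these lambda counts was not tested, and the lambda level in T cell-like cells of tumor 1 was 0.0879 per 10000.

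**Figure D2:**
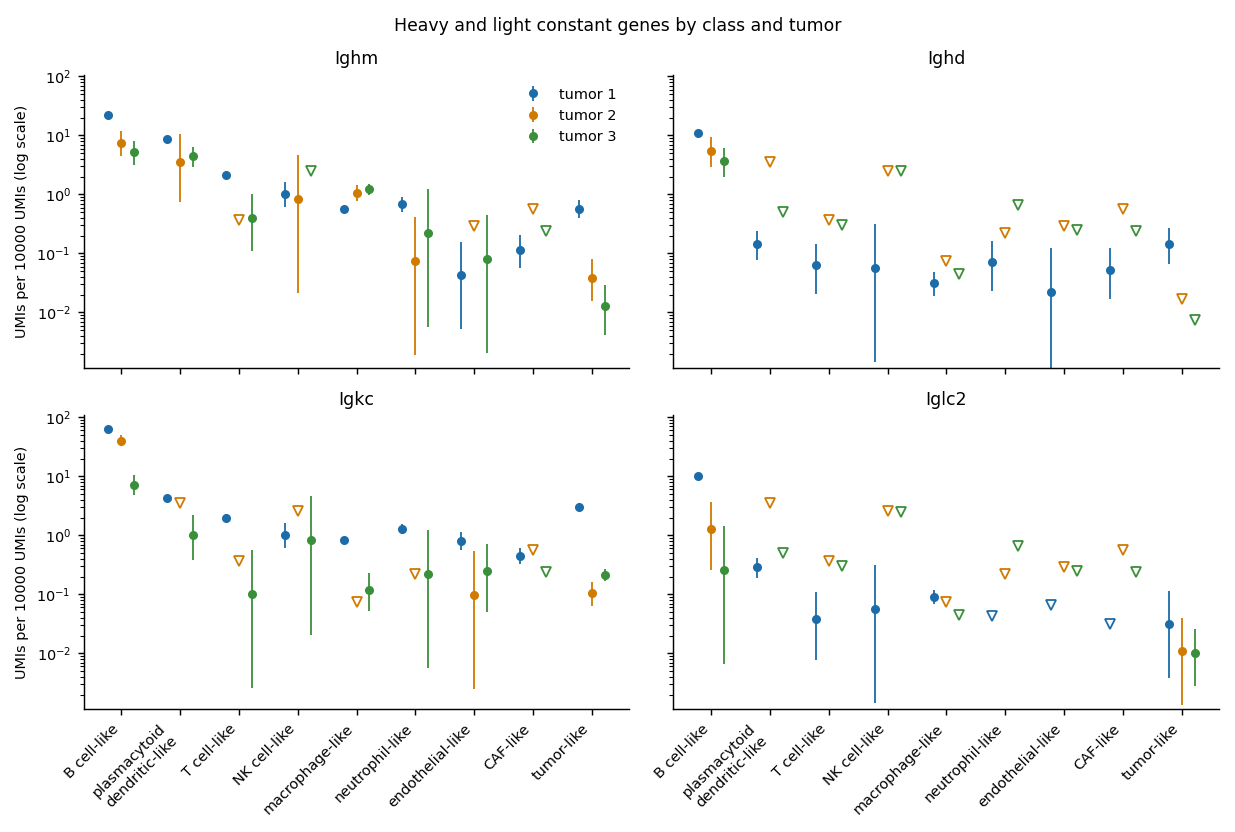
UMIs per 10000 UMIs (vertical axis, log scale) of Ighm, Ighd, Igkc and Iglc2 in 9 cell classes, with 1 point a tumor, exact Poisson 95% intervals that cover counting error alone, and open triangles at the limit of 3 UMIs where none was found. B cell-like cells are highest in each panel, and the Ighm of plasmacytoid dendritic-like cells lies above that of T cell-like cells in each tumor.

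The B cell-like class was compared with the T cell-like class in summed counts per tumor by the edgeR quasi-likelihood test. Ighd was higher by 7.07 on the log2 scale (SE 1.29, n = 3 tumors, edgeR adjusted p = 0.0109) and Iglc2 by 7.26 (SE 1.46, edgeR adjusted p = 0.0272). Outside tumor 1 the Iglc2 call rests on few UMIs, with 939, 3 and 1 in B cell-like cells of tumors 1, 2 and 3. Igkc, at 5.33 (SE 1.55, edgeR adjusted p = 0.145), and Ighm, at 3.50 (SE 1.11, edgeR adjusted p = 0.216), did not pass, although in each tumor the B cell-like value was the higher, and the ranges over tumors did not overlap. So 2 of the 7 members that passed the filter on low counts were called higher, where 0.472% of the 10813 genes tested were. Ighg2c, Ighg3 and Jchain did not pass the filter, and Ighg2b, which did, had 0 UMIs in both classes of all 3 tumors. With the tumor as a replicate block, 4 of 7 were called higher against 1.22% of all genes, among them Ighm (3.67, SE 0.682, edgeR adjusted p = 7.5e-04) and Igkc (6.26, SE 0.715, edgeR adjusted p = 3.9e-07).

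The calls turned on single tumors. Without tumor 1, Ighm (4.65, SE 0.702, edgeR adjusted p = 0.00746) and Igkc (8.43, SE 1.10, edgeR adjusted p = 0.00118) were called, Ighd was not (edgeR adjusted p = 0.102) and Iglc2 did not pass the filter. No member was called without tumor 2 or without tumor 3, and DESeq2 called 0 members and 21 genes. At an unadjusted p under 0.05, edgeR had 4 members in the full comparison.

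Many genes that work with the receptor were also higher in B cell-like than in T cell-like cells. Of the 20 tested genes of a B cell receptor and surface list, 13 were higher in B cell-like cells and 0 lower, with a median difference of 5.15 against -0.13 over all genes. Several of these genes shaped or named the clusters, so the count describes the classes. Cd79a, which with Cd79b carries the receptor's signal, was at 2023, 1558 and 286 CPM (counts scaled to equal library totals) in B cell-like sums and 37.7, 0 and 10.1 in T cell-like sums. Ms4a1, which encodes CD20, was at 667, 547 and 52.0 against 6.28, 0 and 0 CPM. Cd37, a tetraspanin of the surface, was at 803, 379 and 234 against 181, 122 and 40.5 CPM and did not pass (edgeR adjusted p = 0.518).

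Secretion genes did not divide the classes in that way. Of 19 tested genes of a plasma cell and secretion list, Mzb1, an endoplasmic reticulum factor for antibody assembly, was the 1 higher in B cell-like cells (5.06, SE 1.14, edgeR adjusted p = 0.0354), and the list's median was 0.07. Hspa5, the chaperone first named as the heavy chain binding protein, was at 299, 379 and 104 CPM against 289, 354 and 314. Of 4 tested genes of rearrangement, switching and germinal centers, 0 passed. The other lambda constant genes are Iglc1 and Iglc3. Iglc1 was called higher (7.66, SE 1.33, edgeR adjusted p = 0.0106). It had 311, 11 and 0 UMIs in B cell-like cells of tumors 1, 2 and 3, so tumor 3 showed no difference. Iglc3 did not pass (5.84, SE 1.44, edgeR adjusted p = 0.0771) except with the tumor as a replicate block (6.39, SE 0.904, edgeR adjusted p = 3.0e-05).

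Plasmacytoid dendritic-like cells, a class known in mice to carry some immunoglobulin transcripts, held Ighm with little Ighd. Ighm was at 8.61, 3.57 and 4.43 per 10000 UMIs in tumors 1, 2 and 3 (88, 4 and 24 cells), next below the B cell-like class in each tumor among the named classes of the plot of levels by class. It was found in 87 of 88 cells in tumor 1, 1 of 4 in tumor 2 and 14 of 24 in tumor 3. Ighd was at 0.143, 0 and 0 per 10000, so Ighm exceeded Ighd by 784 to 13 UMIs in tumor 1 and by 26 to 0 in tumor 3, while B cell-like cells of those tumors had 2024 to 999 and 20 to 14. The B cell markers summed to 0.835 per 10000 UMIs in this class and 69.5 in the B cell-like class of tumor 1.

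The light chain of this class was also of a different make. Igkc was at 4.22, 0 and 1.02 per 10000 UMIs and Iglc2 at 0.286, 0 and 0, but Iglc3 was at 3.98, 2.38 and 1.53. Iglc3 made up 89.6% (86.2 to 92.4) of the lambda constant UMIs in tumor 1, against 26.8% (24.7 to 28.9) in B cell-like cells of the same tumor. In tumors 2 and 3 all 2 and 9 lambda UMIs of the class were Iglc3. More Iglc3 than Igkc was found in 44 of 88 cells of tumor 1 and in 2 of 201 B cell-like cells. These are counts over cells of 1 tumor each and carry no test between tumors.

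**Figure D3:**
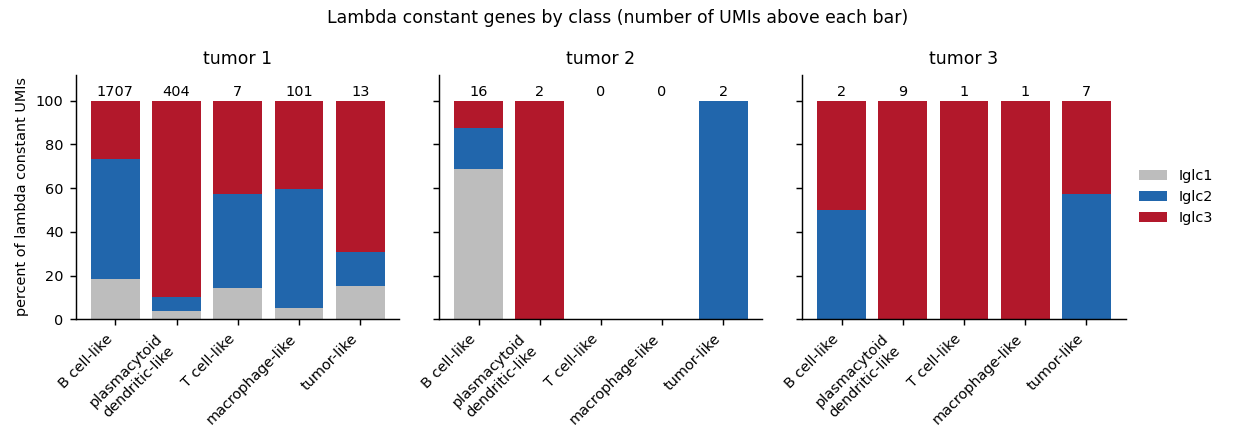
Percent of lambda constant UMIs (vertical axis) from Iglc1, Iglc2 and Iglc3 in 5 classes of each tumor, with the number of UMIs above each bar. In tumor 1 Iglc3 fills 89.6% of the plasmacytoid dendritic-like bar and 26.8% of the B cell-like bar, and bars over few UMIs are uncertain.

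In the edgeR comparison with T cell-like cells the plasmacytoid dendritic-like class entered with tumors 1 and 3, since tumor 2 had under 10 cells. Of 7 members tested, 0 were called, where 2.36% of genes were higher. Ighm differed by 2.56 (SE 1.13, edgeR adjusted p = 0.326), 1 member had an unadjusted p under 0.05 in edgeR, and DESeq2 called 0 members. Iglc3 was higher by 5.92 (SE 1.48, edgeR adjusted p = 0.0350), at 398 and 153 CPM against 3.77, 0 and 10.1. With the tumor as a replicate block, Ighm was called (2.68, SE 0.723, edgeR adjusted p = 0.0163), 1 member of 7 against 4.37% of all genes. Without tumor 1, Ighm differed by 4.30 (SE 0.782, edgeR adjusted p = 0.00935) and was called. Iglc3 was not called without any 1 of the 3 tumors (edgeR adjusted p = 0.108 to 0.277). Without tumor 1 or 3 the class is a single sum, and the spread then comes from other classes.

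Some genes of the receptor machinery were higher in the class as well. Lyn, Blnk, Syk and Plcg2, the kinases, adaptor and phospholipase that act below the receptor, were the 4 of 20 receptor genes higher than in T cell-like cells, and 0 were lower (median 0.19 against -0.15 over all genes). Blnk was at 232 and 204 CPM against 1.26, 0 and 0. In the secretion list, Xbp1 (524 and 119 against 36.4, 12.2 and 20.2 CPM) and Mzb1 were the 2 of 19 that were higher. Dntt, the polymerase that adds bases at V segment joints, was at 164 and 119 CPM against 0 UMIs in all 3 T cell-like sums, the 1 of 4 tested genes of its list to pass.

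Some macrophage-like cells of tumors 2 and 3 carried Ighg2b and Ighm with no light chain UMI. The class held 24 and 37 Ighg2b UMIs in 8 cells of each tumor, of 28 and 39 UMIs over all kept cells, and 0 in 606 cells of tumor 1 (up to 0.00500 per 10000 UMIs allowed). At a finer clustering all 16 cells fell in 1 cluster of 37, 22 and 16 cells, led by Lipg, Cxcl13 and Fcrl5 and holding 8 of 10 macrophage markers. That score pools the tumors, which gave 526057, 102345 and 101647 UMIs to the cluster, so it rests mostly on tumor 1. Within the cluster, Ighg2b was at 0, 2.35 and 3.64 per 10000 UMIs and Ighm at 1.43, 3.71 and 5.21 in tumors 1, 2 and 3, so both tumors with Ighg2b also had the more Ighm. This cluster was looked at after the values of Ighg2b had been seen.

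The 16 cells held 1 to 10 Ighg2b UMIs each, and 15 of them also had Ighm, at up to 6 UMIs in tumor 2 and 9 in tumor 3. No UMI of Igkc, of a lambda constant gene or of Ighd was found in them, nor of Cd79a, Ms4a1, Siglech or Mzb1. Cd79b, the partner of Cd79a in the receptor, was found in 2 and 5 of the 8 cells of tumors 2 and 3. Fcrl5, an Fc receptor-like gene of B cells and some myeloid cells, was found in 7 and 7 and Cd300e, a gene of nonclassical monocytes, in 6 and 8. Csf1r was found in 1 and 1 of the 8 cells, and in 36 of the 37 cells of the cluster in tumor 1, 5 of 22 in tumor 2 and 5 of 16 in tumor 3, so the fine cluster was not alike across tumors by this marker. Their median depth was 4623 and 6645.5 UMIs, against 2791 and 2966 for the class.

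**Figure D4:**
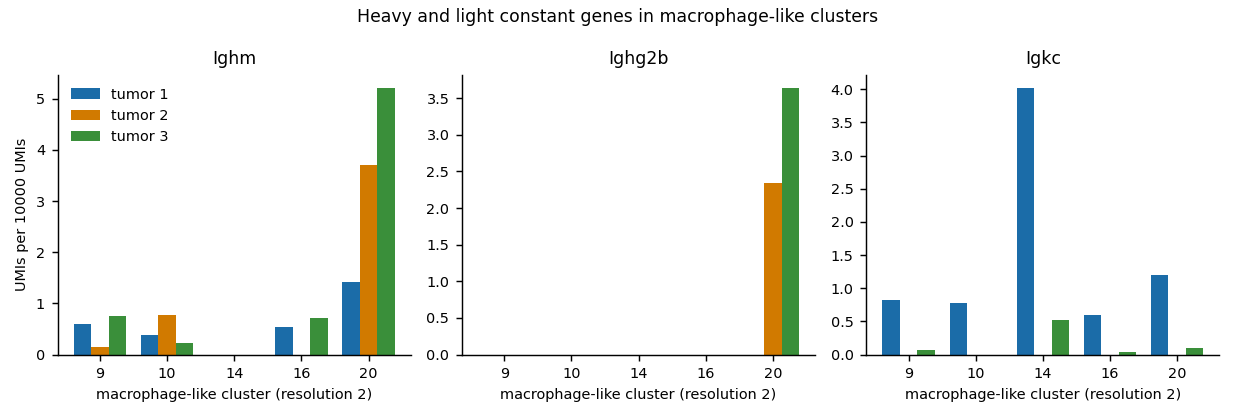
UMIs per 10000 UMIs (vertical axis, linear) of Ighm, Ighg2b and Igkc in the macrophage-like clusters found at a resolution of 2 (horizontal axis), with 1 bar a tumor. Ighg2b is in cluster 20 of tumors 2 and 3, where Ighm is also highest, and Igkc is not raised there in those tumors.

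Ighg2b was at 0, 0.601 and 0.549 per 10000 UMIs in macrophage-like cells and 0, 0.0111 and 0 in tumor-like cells, so the values of tumor 1 were both 0. It passed the filter on low counts through the macrophage-like sums of tumors 2 and 3 alone, so its values are a description. The edgeR call of Ighg2b as higher than in tumor-like cells was favored by that selection and is not used as support. No other of the 7 tested members was called higher, where 18.7% of genes were. Ighm was at 0.558, 1.08 and 1.23 against 0.574, 0.0390 and 0.0126 and did not pass (2.82, SE 1.11, edgeR adjusted p = 0.0711), and in tumor 1 the classes were level. With the tumor as a replicate block, Ighm was higher (4.06, SE 0.683, edgeR adjusted p = 1.1e-05). Ighg2b aside, Ighm was the 1 member called higher, where 22.5% of all genes were. Ighg1 was called lower (-1.94, SE 0.698, edgeR adjusted p = 0.0285), almost wholly on UMIs of tumor 1. There it had 89 UMIs among 5999931 in macrophage-like cells and 60 among 627306 in tumor-like cells. All kept cells of tumors 2 and 3 held 0 and 1 Ighg1 UMIs. Without tumor 1, where the classes were level, Ighm differed by 5.93 (SE 0.491, edgeR adjusted p = 4.5e-08) and was called. Without the cluster that holds Ighg2b, Ighm differed by 1.47 and was not called, and Ighg2b was then not tested. DESeq2 called 0 members.

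Receptor genes that myeloid cells also use were higher in the macrophage-like class as well. Of 20 tested receptor genes 12 were higher and 0 lower (median 3.56 against -0.01 over all genes), led by Lyn at 676, 351 and 359 CPM against 20.7, 0.557 and 2.78 in tumor-like cells. Cd72, an inhibitory surface receptor, was at 108, 383 and 300 against 4.78, 0.557 and 1.77 CPM. Of 19 secretion genes 10 were higher, among them Hspa5 (801, 614 and 536 against 210, 281 and 205 CPM). Bcl6 and S1pr2 were higher and Ung lower among 4 tested genes of the rearrangement and germinal center list.

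Immunoglobulin RNA was found in every well filled class of tumor 1. Over all classes other than B cell-like and plasma cell-like, and without cells of at least 5 Jchain UMIs, the members made up 3.34 (3.23 to 3.45), 0.413 (0.340 to 0.498) and 0.570 (0.507 to 0.639) per 10000 UMIs in tumors 1, 2 and 3. The tumors came in another order than their number of cells with at least 5 Jchain UMIs, 24, 1 and 0, with tumor 3 above tumor 2. These pooled rates include plasmacytoid dendritic-like cells, at 13.7, 3.57 and 5.45 per 10000, and macrophage-like cells, at 1.83, 1.68 and 1.96. Both classes were described above as holding Ighm. The part of these classes in the order of tumors was not tested. In tumor-like cells, which should make none, the rate was 5.55 (4.98 to 6.16), 0.178 (0.122 to 0.252) and 0.285 (0.235 to 0.343). Their median depths were 934, 1548 and 1812 UMIs, lowest in tumor 1, where macrophage-like cells had 8824. The part of depth in the rates was not tested. Single cells weighed on these rates: 1 tumor-like cell held 53 of the 348 UMIs in tumor 1 and 1 held 16 of the 32 in tumor 2, and without the 1% of cells with most member UMIs the rates were 4.44, 0.0337 and 0.221. At least 1 UMI of a member was found in 62.4% of the cells of other classes in tumor 1.

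The makeup of these UMIs was set side by side for classes of tumor 1. In tumor-like cells 54.3% (48.9 to 59.6) of the members' UMIs were Igkc, 17.2% (13.4 to 21.6) Ighg1, 10.3% (7.4 to 14.0) Ighm and 7.47% (4.9 to 10.8) Igha. In macrophage-like cells Igkc made up 45.1%, Ighm 30.5% and Ighg1 8.11%, and in T cell-like cells 41.3%, 45.9% and 4.80%. The Ighm share went from 10.3% in tumor-like to 63.0% in plasmacytoid dendritic-like cells. The intervals take UMIs as independent, which UMIs of 1 cell are not. The cells with at least 5 Jchain UMIs, with 65.2% Igkc, 13.6% Igha, 10.3% Ighg1 and 0.0525% Ighm, and the B cell-like cells, with 59.3% Igkc and 20.3% Ighm, had other makeups.

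**Figure D5:**
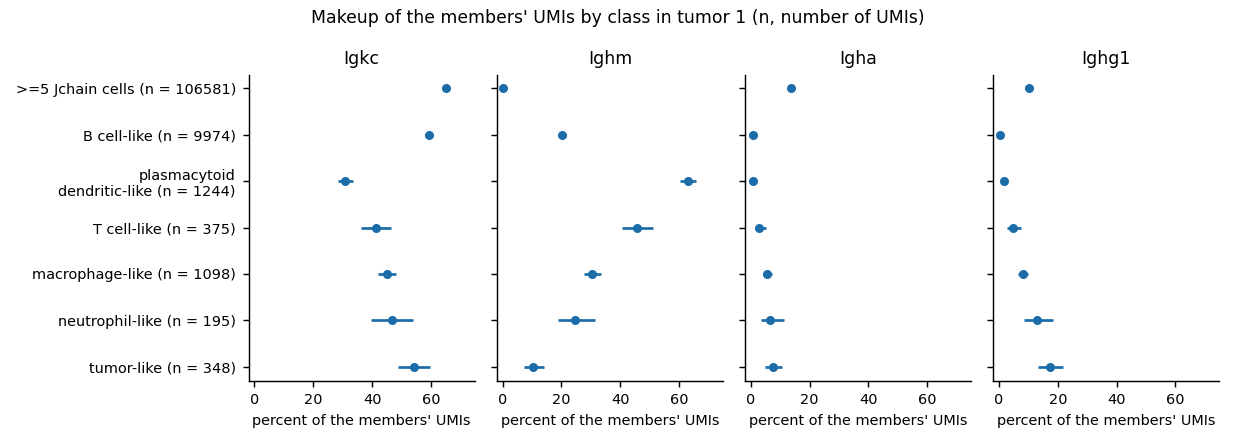
Share of Igkc, Ighm, Igha and Ighg1 among the UMIs of the 10 members (horizontal axes, percent) in 7 sets of cells of tumor 1, as points with exact binomial 95% intervals. The Ighm share goes from 10.3% in tumor-like cells to 45.9% in T cell-like and 63.0% in plasmacytoid dendritic-like cells, and Ighg1 is highest in tumor-like cells at 17.2%.

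V segments gave a further view of the same RNA. In other classes of tumor 1, 43 light V UMIs were found, of which 32 (74.4%) came from the 5 light V segments with most UMIs in the cells with at least 5 Jchain UMIs. The same 5 segments made up 22.4% of the 76 light V UMIs of B cell-like cells. In tumors 2 and 3, 1 light V UMI each was found in other classes.

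Some cells of other classes held Ighm beyond single UMIs. At least 2 Ighm UMIs were found in 36 of 146 T cell-like and 63 of 606 macrophage-like cells of tumor 1, and 17 and 20 of these had no light chain UMI. In tumors 2 and 3, 10 and 16 macrophage-like cells had at least 2 Ighm UMIs, of which 10 and 15 had no light chain, and no T cell-like cell did. The B cell markers summed to 1.47 per 10000 UMIs in those T cell-like cells of tumor 1 and to 1.04 in T cell-like cells without Ighm. In macrophage-like cells of tumor 1 they summed to 1.80 and 0.304, and the plasmacytoid dendritic markers to 8.31 and 2.43. In macrophage-like cells of tumors 2 and 3 the plasmacytoid dendritic markers summed to 2.67 and 3.79 with at least 2 Ighm UMIs and to 3.63 and 4.05 without Ighm. The B cell markers of the same cells summed to 0.785 and 1.57, against 0.487 and 0.461 without Ighm. Their plasma cell markers summed to 3.46 and 1.76, against 1.23 and 1.56. The part of mixed barcodes in these counts was not tested.

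The authors had corrected counts for ambient RNA, and counts returned from their normalized values were set beside the raw ones. Depth also changed in the returned counts, as in cell 1 (783 to 2155 UMIs) and cell 16 (32603 to 4404). The values below therefore mix both changes, and the part of ambient correction was not tested. In the returned counts the rate in other classes was 3.41, 0.389 and 0.642 per 10000 UMIs in tumors 1, 2 and 3. These rates cover the 9, 4 and 6 members listed there, and raw counts of those same members gave 3.34, 0.399 and 0.556. In macrophage-like cells of tumor 1, 46 of 495 Igkc UMIs (9.29%) were returned, against 35.0% of all UMIs. In tumor-like cells of that tumor Igkc went from 189 to 296 (157%), with all UMIs at 134%. In the B cell-like class of tumor 1, Ighm went from 2024 to 2074 and Igkc from 5910 to 5950 while all UMIs fell to 66.2%. Just 3 members, Ighm, Ighd and Igkc, were listed in the normalized tables of all 3 tumors.

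Across the 26 class sums of the 3 tumors, log2 CPM of Ighm was most like that of Ceacam16 (r = 0.834), Malt1 (0.826) and Siglecg (0.825) among 10804 genes outside the immunoglobulin loci. Igkc was most like Cd79a (0.848), Tnfrsf13c (0.814) and Fcrla (0.793). Jchain was most like Dennd2d (0.794), Ikzf3 (0.753) and Gm42418 (0.716), over sums from which its highest cells had been left out. The sums share tumors and depth, and these values describe likeness alone.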

How the data were processed

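Whole tumors were profiled by 10x Chromium 3′ v3.1, and per the labels Cell Ranger 3.1.0, Seurat 3.1.5 and the mm10 build were used. For each tumor the authors deposited raw UMI counts per gene and barcode and, for kept cells, normalized values, the natural log of 1 plus a count corrected for ambient RNA, with doublets and low-quality barcodes removed. Kept cells were the barcodes of the deposited normalized files, and all main values came from raw counts of 1914, 1221 and 2515 cells (12628163, 2740537 and 5215401 UMIs). Barcodes were clustered in Seurat 5.3.0 (2000 variable genes, 30 dimensions, resolution 1) with 394 immunoglobulin symbols held out. A cluster was named from at least 3 markers with a fold of 2 in at least 10% of its cells. The plasma cell-like cluster was split from tumor-like cells by clustering it again at a resolution of 0.5, after the data had been seen. No further doublets were called.

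Counts were summed per tumor and class (at least 10 cells, 26 sums) and compared with edgeR 4.0.16 in R 4.3.3 (filterByExpr, TMM, quasi-likelihood, Benjamini-Hochberg adjustment, threshold 0.05). Cells with at least 5 Jchain UMIs were left out. DESeq2 1.42.0, no filter, library sizes alone, other clustering, returned counts, omitted tumors and a replicate block were alternatives. Classes of a tumor come from the same animal, which pairs them. Deviations from class means correlated at 0.103 to 0.541 within tumors and at -0.455 to 0.197 between tumors. Centering each class on the mean of its own sums makes the values between tumors offset those within, so they add no separate evidence. In counts simulated for B cell-like against T cell-like over 9152 genes, 18 of 68 genes changed 4-fold, 51 of 66 changed 16-fold and 58 of 66 changed 64-fold were called. Intervals are exact at 95% and cover counting error alone. Replicates are 3 tumors of 3 mice.

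Members and gene lists were chosen with earlier results of these data known. Text names all members, up to 6 genes a list with the highest CPM, leading V segments and the 3 genes most like Ighm, Igkc and Jchain. Sequences came from GENCODE M21.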

Additional observations from a re-analysis of the deposited data

Results flagged for a closer look

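Barcodes that the authors removed from tumor 1 also held antibody RNA, in data that the comparisons did not use. Of 1343 removed barcodes, 1 had at least 5 Jchain UMIs, with 719 Ighg1, 657 Igkc and 20 Jchain UMIs among 3053, and 24.5% of its UMIs were mitochondrial. The removed barcodes of tumor 1 held 3027 UMIs of the members in all (6.45 per 10000 UMIs), of which that 1 barcode held 1402. In tumors 2 and 3, 3106 and 3523 removed barcodes held 81 and 220 UMIs of the members, and 0 had at least 5 Jchain UMIs.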

How the results depend on the processing

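Tumors 2 and 3 had 14 and 25 B cell-like cells, and values within tumor 1 rest on 1 mouse. Leaving out 1 tumor gave 0 to 6 genes and 0 to 2 members in B cell-like against T cell-like (72 and 2 with all), 43 to 77 and 0 to 1 in plasmacytoid dendritic-like against T cell-like (314 and 0) and 1234 to 1622 and 0 to 1 in macrophage-like against tumor-like (2391 and 1). With the tumor as a replicate block, the genes and members called were 265 and 4, 723 and 1, and 4085 and 3. Without the filter they were 204 and 4, 581 and 1, and 3946 and 3. DESeq2 called 21 and 0, 126 and 0, and 1740 and 0, and tested fewer genes. With returned counts, where 3 members were listed, they were 2 and 0, 109 and 0, and 896 and 0. In the first comparison, 33 genes and 1 member were called with cells of at least 5 Jchain UMIs kept, and 41 genes at resolution 2. In the third, library sizes alone moved the share of higher calls from 84.5% to 72.7%, those Jchain cells kept moved it to 66.2%, and leaving out the cluster with Ighg2b, chosen after seeing the data, gave 0 members and left Ighg2b untested. No named gene changed sign. Except where stated, the cause was not tested.

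Jchain cells numbered 26, 1 and 0 at a threshold of 3 and 23, 1 and 0 at 10. Thinning to 500 UMIs gave shares of B cell-like cells with Ighm of 64.2% and 20% in tumors 1 and 3, with Ighd of 40.8%, 28.6% and 4% in tumors 1, 2 and 3, with Igkc of 92.5% and 16% in tumors 1 and 3 and with Iglc2 of 37.8% in tumor 1, fewer UMIs a cell being the construction. Taken by markers, 4 cells of tumor 3 had Ighd in 0%, Igkc in 100% and Iglc2 in 0%. The members in other classes of tumor 1 were at 5.32 per 10000 UMIs with Jchain cells kept, 1 cell more. Without the 1% of cells with most member UMIs they were at 2.77, 0.129 and 0.312 in tumors 1, 2 and 3. In tumor 3 returned counts gave 0.642 over the 6 members listed there.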
